A study of Mus musculus with 20 samples.

Results

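Antigen presentation by major histocompatibility complex (MHC) class I was examined through 10 genes, of the 55573 genes in the count table. They are the heavy chain genes H2-K1, H2-K2 and H2-D1, the light chain gene B2m, the peptide loading genes Tap1, Tap2 and Tapbp, the immunoproteasome genes Psmb8 and Psmb9, and the transactivator gene Nlrc5. The pathway was chosen because H2-K2 was lower in the Nox4 knockout lines than in the wild type line WT_1-4 in these same libraries, so that difference is given as a description only. All 10 genes were found in the table and all 10 passed the filter on low counts of the model over the 20 libraries.

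RNA-seq was carried out on mouse embryoid body (EB) cultures, aggregates in which pluripotent cells differentiate. The cultures came from 4 lines of induced pluripotent stem cells (iPSC). By the study's methods, its iPSC are embryonic fibroblasts reprogrammed with retroviral Oct4, Sox2, Klf4 and c-Myc. WT_1-4 (WT#1-4 in the labels) and WT_20d (WT#20D-17) are wild type, and Nox4KO_5-8 and Nox4KO_5-23 are 2 Nox4-/- lines made from fibroblasts of knockout mice that lack the NADPH oxidase Nox4. The methods state that iPSC were kept with leukemia inhibitory factor on mitotically arrested fibroblast feeders. Each line was sampled at the iPSC stage (day 0) and on days 3, 5, 7 and 14 of EB culture without that factor, with 1 library per line and day. The study's text names 3 of these lines and does not name WT#20D-17, so its general methods are assumed to hold for that line. Each line is a clone, so a difference between genotypes cannot be told apart from a difference between clones, and the days of a line are not separate lines.

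Total counts were between 20294968 and 27708023 per library, so that 3 counts, taken as the smallest number detected, stood for 0.108 to 0.148 counts per 1000000 (CPM, scaled by TMM factors). Nox4, the targeted gene, had 3 to 22 counts in WT_1-4, 56 to 203 in WT_20d, 0 to 2 in Nox4KO_5-8 and 0 in every library of Nox4KO_5-23. The line WT_20d stood apart from the other lines in several markers of pluripotent cells, though not in each. On day 0, Nanog was at 379 CPM in WT_20d and at 0.0387, 0.366 and 0.154 CPM in WT_1-4, Nox4KO_5-8 and Nox4KO_5-23. Zfp42, another marker of the pluripotent state, had 0 counts in all 15 libraries of those 3 lines and 147 to 1016 counts in WT_20d. Esrrb, Dppa5a and Tdgf1 were also highest in WT_20d on day 0. Pou5f1, the mouse Oct4 gene, was at 5868, 1124, 3140 and 4543 CPM on day 0 in WT_1-4, WT_20d, Nox4KO_5-8 and Nox4KO_5-23. Klf4 was at 823, 26.1, 660 and 856 CPM in that order, so both were lowest in WT_20d. Sox2 was at 34.25, 193, 157 and 209 CPM. On day 14 Pou5f1 was at 1354, 21.3, 1858 and 3773 CPM and Klf4 at 377, 180, 456 and 812 CPM in the same order of lines. Nanog reached at most 0.870, 1.02 and 0.711 CPM on any day in WT_1-4, Nox4KO_5-8 and Nox4KO_5-23. The markers thus do not show the same starting state, or the same course over days, in the 4 lines. Viral and chromosomal copies of a reprogramming gene cannot be told apart in a gene count. Because WT_20d stood apart, the changes on days 7 and 14 are also given without it.

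MHC class I molecules display peptides from inside the cell to cytotoxic T cells and natural killer cells. A heavy chain such as H2-K or H2-D pairs with the light chain beta 2 microglobulin in the endoplasmic reticulum. The proteasome cuts the peptides, the Tap1 and Tap2 transporter carries them into the endoplasmic reticulum, and tapasin, encoded by Tapbp, holds the empty class I molecule at the transporter until it is loaded. Interferons raise most genes of the pathway through interferon response elements and through NLRC5, a factor that works with proteins bound to the X and Y boxes of class I promoters. Embryonic stem cells are known for low class I levels that rise as the cells differentiate.

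H2-K1 and H2-K2 are near copies, and their sequences show how reads could be divided between them. In the GENCODE M21 annotation of GRCm38, H2-K1 (ENSMUSG00000061232) lies at chr17:33996017-34000347 on the minus strand as a protein-coding gene. H2-K2 (ENSMUSG00000067203) lies at chr17:33974659-33978827 on the same strand and is annotated as a transcribed unprocessed pseudogene, so its counts are not a measure of a protein. H2-D1 (ENSMUSG00000073411) lies further along at chr17:35262730-35267499 on the plus strand. Of the 1107 coding bases of H2-K1, 904 aligned to the H2-K2 transcript and 89.0% of those were identical, while 1077 aligned to H2-D1 and 91.5% of those were identical. The stretch of read length most alike in H2-K1 and H2-K2 lies in exon 4 of H2-K1, exon 3 of H2-K2 and exon 4 of H2-D1. It is printed here with capitals for a base that differs from H2-K1.
H2-K1 transcript: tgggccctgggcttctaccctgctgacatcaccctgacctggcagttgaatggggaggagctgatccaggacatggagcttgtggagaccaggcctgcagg
H2-K2 transcript: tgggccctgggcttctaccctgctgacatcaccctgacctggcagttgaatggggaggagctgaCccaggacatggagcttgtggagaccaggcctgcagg
H2-D1 transcript: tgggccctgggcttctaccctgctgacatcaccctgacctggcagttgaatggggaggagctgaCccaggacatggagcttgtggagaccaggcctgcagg
The positions are chr17:33997398-33997498 for H2-K1, chr17:33975854-33975954 for H2-K2 and chr17:35265846-35265946 for H2-D1. This stretch had 1 difference between H2-K1 and H2-K2, and the stretches printed for H2-K2 and H2-D1 are the same. Over 400 such windows within single exons, H2-K1 and H2-K2 differed by a median of 9 bases and at most 20. H2-K1 and H2-K2 shared no run of 100 bases, and H2-K2 and H2-D1 shared 10 such runs of the 1810 in H2-K2. Runs shared with the transcripts of any other gene made up 0.957% of H2-K1, 1.60% of H2-K2 and 3.59% of H2-D1. The division of class I reads between near copies is thus uncertain in part of each gene, most of all in H2-D1. These figures hold for the reference sequence. The study's methods name CF-1 embryos as the source of embryonic fibroblasts, and the strain of the knockout mice is not given in the sources used here.

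Promoters of the members were searched for motifs. H2-K1 and B2m, printed here, did not share a course in every line. From day 0 to day 14 H2-K1 rose in each line, while B2m on day 14 was at 0.755 and 0.848 times day 0 in WT_1-4 and Nox4KO_5-8. RefSeq windows of GRCm38.p6 were held for 7 of the 10 members, H2-K1, H2-D1, B2m, Tap1, Tapbp, Psmb8 and Psmb9. The 200 bases before H2-K1, at chr17:34000348-34000547 on the minus strand, and the 199 bases before B2m, at chr2:122147487-122147685 on the plus strand, are printed 5′ to 3′, with capitals for the motifs described after them.
H2-K1 promoter: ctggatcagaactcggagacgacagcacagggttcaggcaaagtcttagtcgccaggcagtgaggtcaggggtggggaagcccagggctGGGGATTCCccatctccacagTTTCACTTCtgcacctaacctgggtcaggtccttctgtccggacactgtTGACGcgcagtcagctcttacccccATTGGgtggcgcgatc
B2m promoter: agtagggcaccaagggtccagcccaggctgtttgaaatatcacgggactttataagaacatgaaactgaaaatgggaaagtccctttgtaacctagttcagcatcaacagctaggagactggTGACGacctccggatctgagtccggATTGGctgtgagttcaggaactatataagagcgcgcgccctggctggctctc
Motifs were searched on both strands of 250 bases before each start, in 32851 windows. The CCAAT box (CCAAT, read as ATTGG on the other strand) was in 33.8% of all windows and the CRE core (TGACG) in 17.8%. The core of the interferon-stimulated response element (GAANNGAAA) was in 6.31% and the core of the gamma-activated site (TTCNNNGAA) in 7.02%. A core of an NF-kappaB site (GGGNNTTCC), added after the sequences had been seen, was in 4.98%. H2-K1 and H2-D1 held the CCAAT box, the CRE core, the response element core and the NF-kappaB core. B2m, Tap1 and Psmb9 held the CCAAT box and the CRE core, Tapbp held the CCAAT box, and Psmb8 held the gamma-activated site core. The letters searched have fixed spacing, so a gene not listed for a motif may hold such a site in another form. The B2m promoter printed above reads gaaactgaaa, which the response element core as searched does not match. The sites of 30 bases shared by H2-K1 and H2-D1 differ outside the capitals.
H2-K1 enhancer A: agcccagggctGGGGATTCCccatctccac
H2-D1 enhancer A: agcccagggctGGGGATTCCccatctcctc
H2-K1 response element: catctccacagTTTCACTTCtgcacctaac
H2-D1 response element: catctcctcagTTTCACTTCtgcacctaac
They lie at chr17:34000440-34000469 and chr17:35262912-35262941 for enhancer A, the NF-kappaB site, and at chr17:34000419-34000448 and chr17:35262933-35262962 for the response element. A match of letters is a description and was not tested as a binding site.

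Levels of different genes were compared as CPM per kilobase of exon, averaged over the 5 days of a line and then over the 4 lines. B2m was highest at 90.4 ± 15.6 CPM per kilobase (SD, n = 4 lines). H2-K1 (22.2 ± 6.14), Tapbp (21.7 ± 4.10) and H2-D1 (17.3 ± 7.62) followed, and these neighbours in the order lay within their spread over lines. Tap1 at 4.74 ± 2.39, H2-K2 at 3.39 ± 3.85 and Tap2 at 2.33 ± 1.22 CPM per kilobase could not be ordered either. Psmb8 (0.727 ± 0.998), Psmb9 (0.467 ± 0.381) and Nlrc5 (0.0252 ± 0.0319) were lowest, with SDs about as large as their means. H2-K2 ranged from 0.151 CPM per kilobase in WT_20d to 8.97 in WT_1-4.

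**Figure D1:**
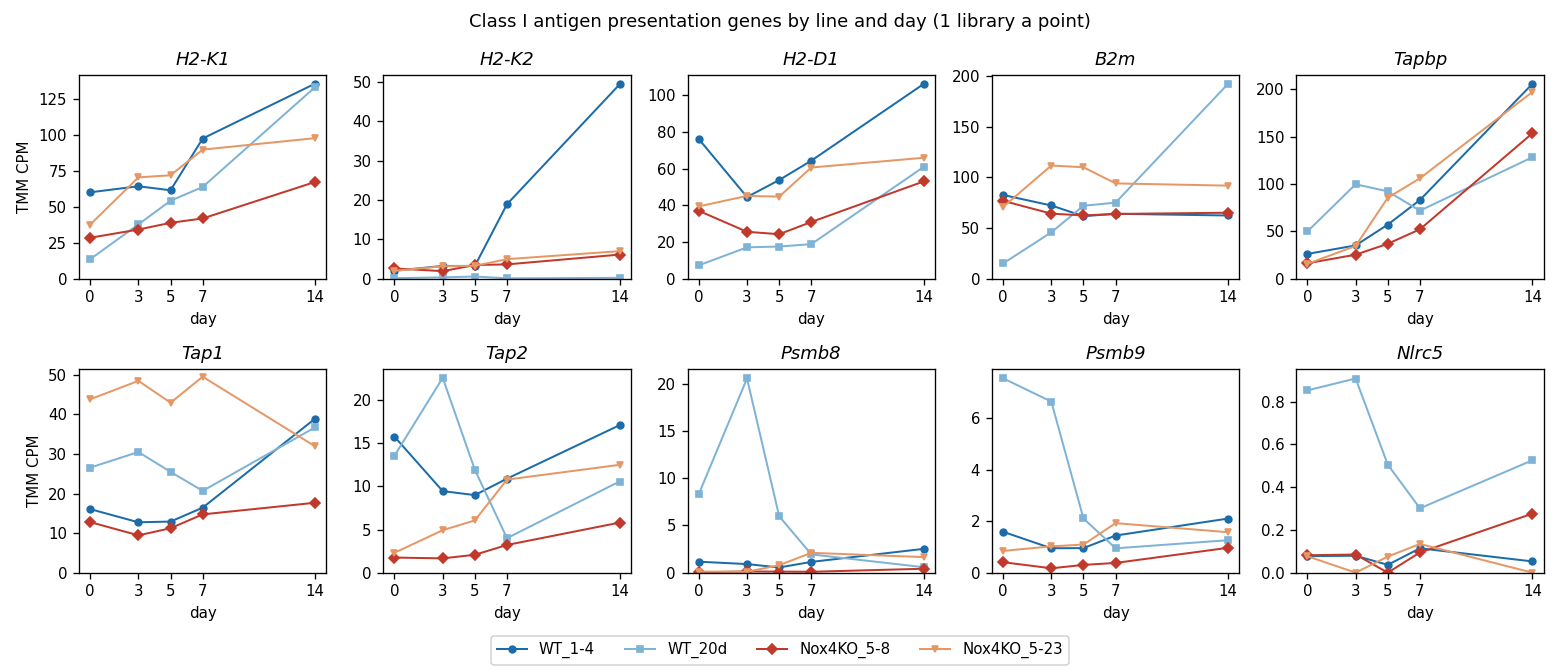
Level in CPM (vertical axis, own scale for each gene, from 0) of the 10 genes by day (horizontal axis), with 1 line and marker per iPSC line and 1 library per point. H2-K1 and Tapbp ended higher than they began in all 4 lines, H2-K2 reached 49.4 CPM in WT_1-4 alone, and Psmb8, Psmb9 and Nlrc5 were highest in early WT_20d libraries.

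H2-K1, a classical heavy chain, rose over the days in every line. In WT_1-4 it was at 60.2, 64.5, 61.7, 97.8 and 136 CPM on days 0, 3, 5, 7 and 14, and in WT_20d at 13.6, 37.9, 54.4, 64.0 and 134 CPM. In Nox4KO_5-8 it was at 28.6, 34.3, 39.0, 42.0 and 67.5 CPM, and in Nox4KO_5-23 at 37.7, 70.7, 72.1, 90.0 and 98.04 CPM. The level rose at every step in 3 of 4 lines, and WT_20d began lowest and ended beside WT_1-4. The fold from day 0 to day 14 was 2.26, 9.84, 2.36 and 2.598 in WT_1-4, WT_20d, Nox4KO_5-8 and Nox4KO_5-23.

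H2-K2, the pseudogene by which the pathway was chosen, had a different course in each wild type line. In WT_1-4 it was at 2.01, 3.24, 3.23, 18.9 and 49.4 CPM on days 0, 3, 5, 7 and 14, which were 52, 82, 88, 499 and 940 counts. In Nox4KO_5-8 it was at 2.604, 1.91, 3.47, 3.63 and 6.12 CPM, and in Nox4KO_5-23 at 2.00, 3.16, 3.27, 4.96 and 7.00 CPM. On days 0, 3 and 5 the knockout libraries lay within 1.91 to 3.47 CPM and overlapped those of WT_1-4. On days 7 and 14 both knockout lines lay below WT_1-4, and on day 14 they were at 0.124 and 0.142 times its level. In WT_20d it was at 0.122, 0.330, 0.547, 0.0860 and 0.210 CPM, which were 3, 8, 13, 2 and 4 counts, and every library of the other lines lay above every library of WT_20d. The course of H2-K2 in WT_1-4, with a 24.6-fold higher level on day 14 than on day 0, had no counterpart in the knockout lines, where the fold was 2.35 and 3.50.

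The share of H2-K2 in the counts of H2-K1 plus H2-K2 does not depend on library size. In WT_1-4 it was 3.23% (exact Clopper-Pearson 95% interval 2.42 to 4.22), 4.79%, 4.98%, 16.2% (14.9 to 17.6) and 26.6% (25.2 to 28.1) on days 0, 3, 5, 7 and 14. In Nox4KO_5-8 it stayed between 5.28% and 8.36%, in Nox4KO_5-23 between 4.28% and 6.66%, and in WT_20d between 0.134% and 0.997%. On day 0 the share in WT_1-4 lay below that in both knockout lines, 8.36% (6.49 to 10.5) in Nox4KO_5-8 and 5.03% (3.78 to 6.54) in Nox4KO_5-23, and on days 7 and 14 it lay above both. The intervals cover counting error only, and the share moves with how reads were divided between the near copies.

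**Figure D2:**
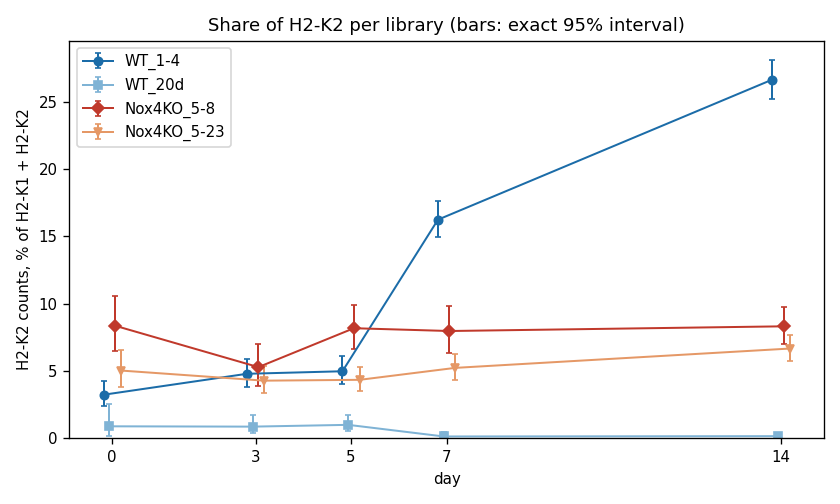
Share of H2-K2 in the summed counts of H2-K1 and H2-K2 (vertical axis, percent) by day (horizontal axis) for the 4 lines, 1 library per point, with exact 95% intervals as bars and small sideways shifts so that points do not hide each other. WT_1-4 goes from 3.23% to 26.6%, while no library of the other lines exceeds 8.36%.

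H2-D1, another classical heavy chain, was highest on day 14 in each line. It was at 76.1, 44.5, 53.8, 64.3 and 106 CPM in WT_1-4 and at 7.26, 17.1, 17.5, 18.8 and 61.0 CPM in WT_20d on days 0, 3, 5, 7 and 14. In Nox4KO_5-8 it was at 37.0, 25.6, 24.2, 30.9 and 53.0 CPM, and in Nox4KO_5-23 at 39.4, 45.1, 44.7, 60.6 and 65.9 CPM. In WT_1-4 and Nox4KO_5-8 the level was lower on day 3 than on day 0, and Nox4KO_5-8 was below WT_1-4 on 5 of 5 days. The ratio of H2-K1 to H2-D1 levels in CPM was between 0.772 and 1.61 in the 3 lines other than WT_20d and between 1.87 and 3.40 in WT_20d.

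B2m (ENSMUSG00000060802, chr2:122147686-122153083) encodes the light chain that every class I heavy chain of the pathway needs. In WT_20d it was at 15.0, 45.8, 72.1, 75.1 and 193 CPM on days 0, 3, 5, 7 and 14, and was 12.8-fold higher on the last day than on the first. In the other lines it stayed between 61.7 and 112 CPM, and day 14 was at 0.755, 0.848 and 1.296 times day 0 in WT_1-4, Nox4KO_5-8 and Nox4KO_5-23. The light chain was thus above day 0 on every later day in WT_20d and below it on every later day in WT_1-4 and Nox4KO_5-8. B2m lies wholly within Patl2, a gene of the opposite strand.

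Tapbp (ENSMUSG00000024308, chr17:33915899-33929292), which encodes tapasin, had the largest fitted change from day 0 to day 14 of the 10 genes. It went from 26.2 to 206 CPM in WT_1-4, from 49.9 to 128 in WT_20d, from 16.3 to 154 in Nox4KO_5-8 and from 15.6 to 197 in Nox4KO_5-23 between days 0 and 14. It rose at every step in the 3 lines other than WT_20d, in which day 7 (71.9 CPM) lay below day 3 (99.8 CPM). Tapbp overlaps Zbtb22 on the same strand, and Zbtb22, a zinc finger gene, stayed between 21.9 and 36.1 CPM in all 20 libraries.

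The transporter genes Tap1 (ENSMUSG00000037321, chr17:34187553-34197225) and Tap2 (ENSMUSG00000024339, chr17:34203527-34216321) differed between lines. Tap1 was at 43.8, 48.5, 43.0, 49.5 and 31.9 CPM in Nox4KO_5-23 and at 12.8, 9.43, 11.2, 14.7 and 17.7 CPM in Nox4KO_5-8 on days 0, 3, 5, 7 and 14, and the libraries of these 2 knockout lines did not overlap. WT_1-4 was between 12.7 and 16.4 CPM up to day 7 and at 38.9 CPM on day 14, and WT_20d was between 20.7 and 36.7 CPM. Tap2 was lowest in Nox4KO_5-8, at 1.75, 1.66, 2.07, 3.21 and 5.80 CPM. It was at 2.31, 4.92, 6.06, 10.8 and 12.5 CPM in Nox4KO_5-23, and at 15.8, 9.45, 8.99, 10.9 and 17.1 CPM in WT_1-4. In WT_20d it peaked at 22.6 CPM on day 3 and had its minimum of 4.00 CPM on day 7. On day 0 Nox4KO_5-23 had the highest Tap1 level of the 4 lines, while its Tap2 level lay below that of both wild type lines. Tap2 and Psmb8 overlap predicted genes of the opposite strand.

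Psmb8 (ENSMUSG00000024338, chr17:34197721-34201454) and Psmb9 (ENSMUSG00000096727, chr17:34181987-34187764) encode catalytic subunits that replace those of the standard proteasome after interferon. Psmb8 was at 8.32, 20.6, 5.98, 1.93 and 0.578 CPM in WT_20d on days 0, 3, 5, 7 and 14, between 0.550 and 2.52 CPM in WT_1-4, and between 0.0928 and 2.10 CPM in Nox4KO_5-23. In Nox4KO_5-8 it had 1, 3, 3, 2 and 9 counts, so 4 of its 5 libraries had 3 counts or fewer. Psmb9 was at 7.55, 6.64, 2.10, 0.946 and 1.26 CPM in WT_20d, and no library of the other lines exceeded 2.10 CPM. Psmb8 and Psmb9 thus had their highest levels in WT_20d on days 0 and 3, when H2-K1, H2-D1 and B2m were lowest in that line. Psmb9 and Tap1 lie head to head and overlap by 212 bases.

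Nlrc5 (ENSMUSG00000074151, chr8:94434356-94527272) was scarce. It had 21, 22, 12, 7 and 10 counts in WT_20d, 1 to 3 counts in WT_1-4, 0 to 6 in Nox4KO_5-8 and 0 to 3 in Nox4KO_5-23. Summed over days, the level in WT_20d was 8.62 times that in WT_1-4 (95% counting interval 4.30 to 19.6, 72 against 9 counts). It was 6.14 times (3.31 to 12.4) that in Nox4KO_5-8 and 11.03 times (5.09 to 28.4) that in Nox4KO_5-23. No statement on change over days can be made at 3 counts or fewer per library.

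The first comparison asked which genes changed over the days of differentiation, with the 4 lines as replicates of each day. It used edgeR's quasi-likelihood test with line and day as terms, fitted over the 18474 genes that passed the filter, and a false discovery rate (FDR, Benjamini-Hochberg adjusted p) under 0.01. Between day 0 and day 14, 3 of the 10 genes were called higher, against 14.3% of all genes tested, and 0 were called lower, against 13.5%. Tapbp rose by 2.84 ± 0.35 on the log2 scale (SE, FDR 1.69e-05, higher in 4 of 4 lines), H2-K1 by 1.71 ± 0.27 (FDR 0.000136, 4 of 4 lines) and H2-D1 by 1.13 ± 0.31 (FDR 0.00827, 4 of 4 lines). H2-K2 differed by 2.38 ± 0.68 and was higher in 4 of 4 lines, in WT_20d on only 4 counts against 3. Most libraries of this fit took part in its choice, so its value is given without a test. B2m (log2 difference 0.75, FDR 0.189), Tap1 (0.54, FDR 0.121), Tap2 (0.88, FDR 0.177), Psmb8 (1.18, FDR 0.383) and Psmb9 (0.05, FDR 0.959) did not pass the test. Nlrc5 differed by -0.10, given without a test because it passed the filter on low counts only through WT_20d. In this and the other tests of days over the 4 lines, H2-K2 and Nlrc5 are counted among the 10 as not called. Nothing is read from that. The call of H2-D1 held in 3 of 24 fits that each left out 1 library or 1 line, those without WT_1-4 day 0, Nox4KO_5-8 day 0 or Nox4KO_5-23 day 14, and its FDR reached 0.0339. The calls of H2-K1 and Tapbp held in 24 of 24.

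On day 7, Tapbp was higher than on day 0 by 1.65 ± 0.34 on the log2 scale (FDR 0.00287) and H2-K1 by 1.09 ± 0.27 (FDR 0.00839), 2 of 10 genes against 6.21% of all genes called higher. Without WT_20d both were again higher on day 7, Tapbp by 2.06 ± 0.23 (FDR 9.58e-05) and H2-K1 by 0.88 ± 0.18 (FDR 0.00298). No member was called on days 3 or 5. When the 4 day terms were tested together, Tapbp (FDR 0.000142) and H2-K1 (FDR 0.00152) were called, 2 of 10 against 17.3% of all genes. In that test the call of H2-K1 was lost without line WT_1-4, Nox4KO_5-8 or Nox4KO_5-23, with an FDR of up to 0.0247, and that of Tapbp without Nox4KO_5-8, at 0.0130.

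Without the 5 libraries of WT_20d, Nlrc5 no longer passed the filter on low counts. H2-K1 rose by 1.28 on the log2 scale between day 0 and day 14 (FDR 9.22e-05) and Tapbp by 3.28 (FDR 1.60e-06), beside 18.4% of all genes called higher and 15.9% called lower in that fit. H2-K2 differed by 2.70 there, but all libraries of that fit took part in its choice and its value is given without a test. H2-D1 no longer passed (log2 difference 0.59, FDR 0.0189), and its change had been largest in WT_20d, at 8.39-fold against 1.40-fold, 1.43-fold and 1.67-fold in WT_1-4, Nox4KO_5-8 and Nox4KO_5-23. H2-K1 and Tapbp were thus the members called both with and without the line that stood apart. In these bulk cultures, more cells of a kind that expresses a gene and more RNA per cell cannot be told apart.

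**Figure D3:**
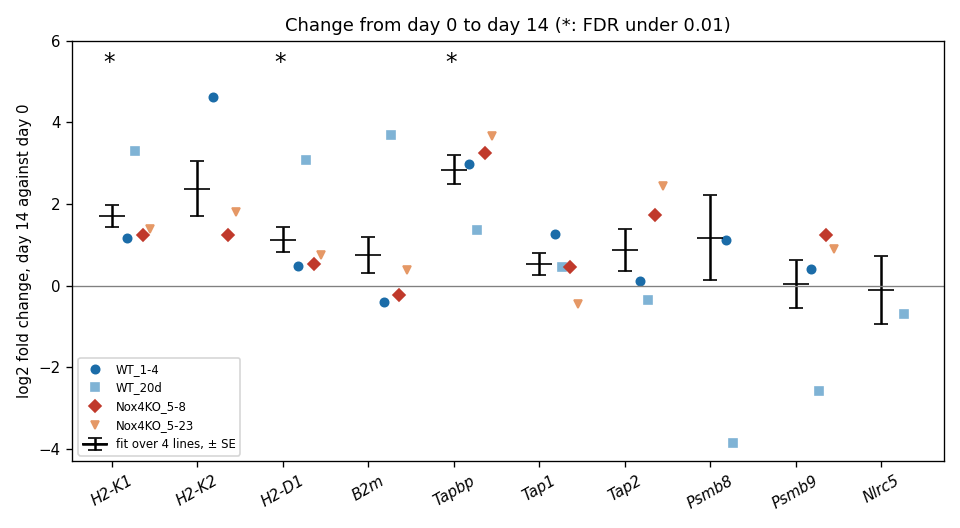
Change from day 0 to day 14 on the log2 scale (vertical axis) for each of the 10 genes. Coloured markers are the 4 lines, black bars are the fit over lines with its SE, a star marks an FDR under 0.01, and a line is left out where a library had 3 counts or fewer. WT_20d lies above the other lines for H2-K1, H2-D1 and B2m, at 9.84-fold, 8.39-fold and 12.8-fold, and below the lines drawn for Psmb8 and Psmb9.

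Markers of other cell types were read beside these changes. The summed level of 10 fibroblast genes went from 1440 to 4085 CPM in WT_1-4, from 619 to 5374 in WT_20d, from 658 to 1202 in Nox4KO_5-8 and from 898 to 3221 in Nox4KO_5-23 between days 0 and 14, so it was higher on day 14 in each line. In Nox4KO_5-8 it was lower on day 14 than on day 7 (1853 CPM), while H2-K1 was higher. Of these 10 genes 1 passed the test as higher on day 14, Fn1, against 14.3% of all genes, and 0 as lower, against 13.5%. In the lines other than WT_20d, Fn1 made up most of the sum. On day 14 it was at 3945 CPM in WT_1-4, 1169 in Nox4KO_5-8 and 3186 in Nox4KO_5-23. Col1a1, Col1a2, Col3a1, Pdgfrb and Postn were lower on day 14 than on day 0 in both knockout lines and higher in WT_20d. Thy1 and Twist1 were higher on day 14 in both knockout lines. The sum is thus not read as an amount of fibroblasts. Feeder fibroblasts and fibroblasts formed in the culture cannot be told apart, and their part in the class I levels was not tested. The summed level of 11 blood and immune genes was between 17.4 and 159 CPM. Several markers of leukocytes were near 0, with Ptprc at no more than 0.473 CPM, Cd3e at 0.368 and Adgre1 at 1.16 CPM in any library. Others of the list were not. Laptm5, a lysosomal gene of blood cells, was between 81.2 and 136 CPM in the knockout lines and between 3.14 and 16.8 CPM in the wild type lines. Cd68, a lysosomal marker of macrophages, was higher on day 14 than on day 0 in each line and went from 2.44 to 56.4 CPM in WT_1-4. Itgam reached 4.41 CPM in Nox4KO_5-23 and Csf1r, a macrophage receptor, 36.2 CPM in WT_20d, both on day 14. The part of such cells in the class I levels was not tested.

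The 2 knockout lines were compared with each other to see how far clones of 1 genotype differed. Over the 5 days, Tap1 was higher in Nox4KO_5-23 than in Nox4KO_5-8 by 1.79 ± 0.25 on the log2 scale (FDR 0.000317, edgeR's quasi-likelihood test, higher on 5 of 5 days), the only member called of 10, against 3.55% of all genes. This call held in 25 of 25 fits without 1 library or 1 day. H2-K1 (log2 difference 0.80, FDR 0.0474), Tap2 (1.36, FDR 0.0812) and Psmb9 (1.63, FDR 0.103) were each higher in Nox4KO_5-23 on 5 of 5 days and did not pass. H2-K2 differed by 0.15 ± 0.54 (FDR 0.925). These p-values measure the spread over days within the lines and not a spread over clones, and the same holds for each comparison of lines.

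Between the 2 wild type lines, 2 of the 9 members tested were called, against 39.8% of all genes. H2-D1 was lower in WT_20d than in WT_1-4 by 1.69 on the log2 scale (-1.69 ± 0.28, FDR 9.99e-05). The other was Nlrc5, which passed the filter on low counts only through WT_20d, the line in which it is high, so its call supports nothing and its counts given above stand as a description. H2-K1 differed by -0.68 (FDR 0.0256), Psmb8 by 2.76 (FDR 0.0179), Tap1 by 0.61 (FDR 0.0446) and Psmb9 by 1.39 (FDR 0.0493), none of which passed. When H2-K1 and H2-K2 were counted as 1 gene, the log2 difference was -0.86. That sum contains H2-K2, so it is given without a test. H2-K2 itself, chosen on the libraries of WT_1-4, was at 0.259 ± 0.187 CPM in WT_20d and at 15.4 ± 20.3 CPM in WT_1-4 (SD, n = 5 days), given without a test. The share of members called was below that of all genes.

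Both knockout lines together were compared with WT_20d, whose libraries did not enter the choice of the pathway, although the knockout libraries did. Of 9 members tested 5 were called, against 49.7% of all genes, and 1 of these was Nlrc5, given without a test for the reason above. Of the other 8 members, 3 were lower, against 26.5% of all genes, and 1 was higher, against 23.3%. Psmb8 (-4.47 ± 0.83, FDR 0.000177), Psmb9 (-2.26 ± 0.49, FDR 0.000768) and Tap2 (-1.60 ± 0.39, FDR 0.00215) were lower in the knockout lines on the log2 scale. In each of these 3 genes Nox4KO_5-8 was below WT_20d on 5 of 5 days, but Nox4KO_5-23 was above it on 2 of 5, days 7 and 14. Psmb8 had 3 counts or fewer in 4 libraries of Nox4KO_5-8 and 2 of Nox4KO_5-23, so the size of its difference is not readable. H2-D1 was higher by 0.985 ± 0.249 (FDR 0.00258). H2-K1 differed by 0.09 ± 0.21 (FDR 0.724) and B2m by 0.17 ± 0.35 (FDR 0.682). The call of Psmb8 held in 25 of 25 fits without 1 library or 1 day. That of Psmb9 was lost without day 0 or day 3, with an FDR of up to 0.0159, that of H2-D1 without WT_20d day 7, day 3, day 5 or day 7, up to 0.0239, and that of Tap2 without WT_20d day 3, day 0, day 3 or day 5, up to 0.0366.

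**Figure D4:**
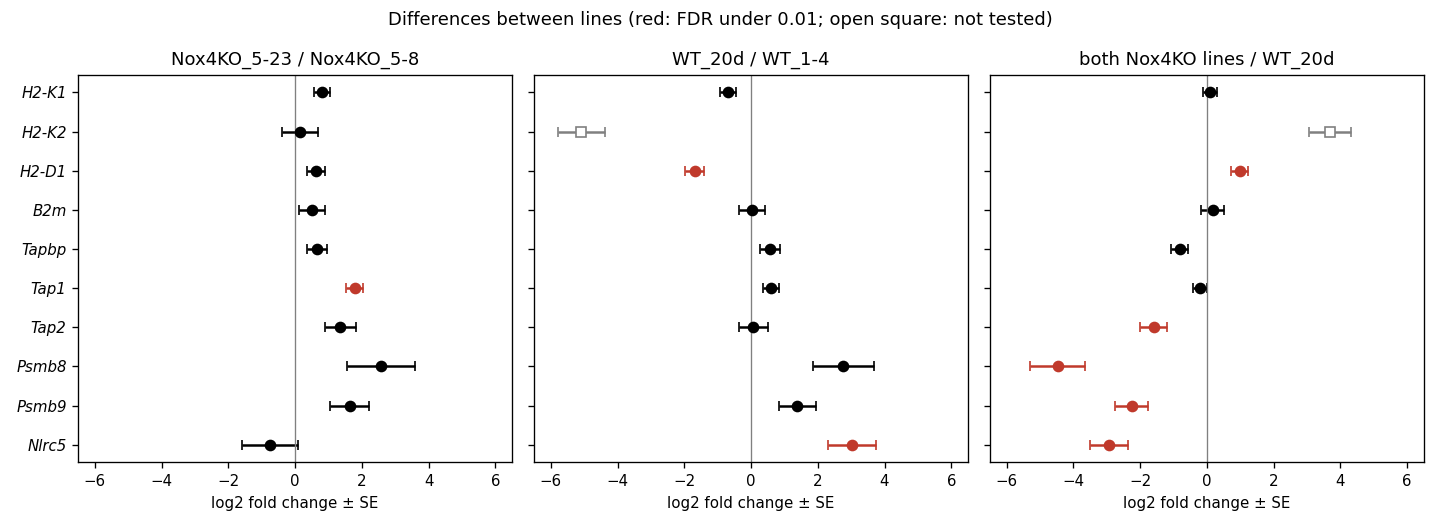
Log2 fold change between lines over the 5 days (horizontal axis, with SE bars) for the 10 genes (rows) in 3 comparisons (panels). Red points have an FDR under 0.01, though that of Nlrc5 rests on a gene that passed the filter through WT_20d alone, and open squares were not tested, because H2-K2 was chosen on those libraries. Tap1 is the red point between the knockout lines, and Psmb8, Psmb9 and Tap2 lie to the left of 0 in the comparison of the knockout lines with WT_20d.

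The comparison of the knockout lines with WT_1-4 is the one by which the pathway was chosen, and it is given as a description. By edgeR's exact test with days pooled, 1 of 10 members and 5.66% of all genes were called, and nothing is read from that count. The member called was H2-K2. With line and day as terms of the quasi-likelihood model its log2 difference was -1.39 and it was not called, while Tap2 (-1.52) was. By the exact test the log2 difference was -1.96 for H2-K2, -1.27 for Tap2, -0.68 for H2-D1, -0.52 for H2-K1, -1.15 for Psmb8 and -0.68 for Psmb9, while B2m (0.25), Tap1 (0.56), Nlrc5 (0.14) and Tapbp (-0.14) were nearer 0 or above it. In the quasi-likelihood model, the knockout lines differed in H2-K2 by -1.39 from WT_1-4 and by 3.69 from WT_20d, and in H2-D1 by -0.70 and by 0.985. These comparisons share the knockout libraries.

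Whether the change over days differed between wild type and knockout lines was tested as a genotype by day interaction over 2 lines each. None of the 10 members was called in the test of the 4 day terms, against 0.0108% of all genes (2 of 18474 at an FDR under 0.01 by edgeR's quasi-likelihood test, 1384 at an unadjusted p under 0.05 and 182 by DESeq2). For the day 14 term alone, 0 of 10 were called, against 0.0217% of all genes (4 of 18474, with 3437 at an unadjusted p under 0.05 and 486 by DESeq2). The lowest FDR of a member was that of Tap2, 0.598 for the 4 terms and 0.175 for day 14, where its log2 change was larger in the knockout lines by 2.14 ± 0.76. H2-K2 had a day 14 term of -2.18 ± 1.38, given without a test because the libraries that chose it take part. H2-K2 and Nlrc5 are counted among the 10 here, and nothing is read from their part in the count. From day 0 to day 14 the 2 wild type lines had opposite signs of change in B2m and Psmb8. Tap2 and Psmb9 were lower on day 14 in WT_20d. Their log2 changes in WT_1-4 were within counting error, 0.117 (95% interval -0.093 to 0.327) and 0.405 (-0.223 to 1.034). The spread between lines of a genotype is part of the error of each term.

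Other genes of the pathway were described from lists chosen with earlier results of these data known. Of 13 other class I heavy chain genes tested, 2 rose between days 0 and 14 and 0 fell, against 14.3% and 13.5% of all genes, with a median log2 change of 1.00 against 0.04 over all genes. H2-T23, the gene of Qa-1, rose by 3.29 ± 0.30 (FDR 1.54e-06) and went from 4.57 to 37.7 CPM in WT_1-4, 1.01 to 17.2 in WT_20d, 3.58 to 30.7 in Nox4KO_5-8 and 2.15 to 19.4 in Nox4KO_5-23. H2-T22 rose by 1.37 ± 0.35 (FDR 0.00505), and it was higher on day 14 than on day 0 in each line but WT_20d. Without WT_20d, 4 of 8 such genes rose (H2-T23, H2-T22, H2-M3 and H2-T10), against 18.4% of all genes.

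Between lines, the nonclassical H2-Q genes set WT_20d apart. Of the 8 other heavy chain genes that passed the filter without WT_20d as well, 4 were higher in the knockout lines than in WT_20d, against 23.3% of all genes, and 2 were lower, against 26.5%. H2-Q4 was between 19.6 and 33.5 CPM in WT_20d, 3.68 and 7.88 in WT_1-4, 0.368 and 1.57 in Nox4KO_5-8, and 1.08 and 2.00 in Nox4KO_5-23 (knockout lines against WT_20d, log2 difference -4.53 ± 0.27, FDR 6.21e-10). H2-Q10 was between 1.68 and 5.48 CPM in WT_20d and had at most 1 count in any knockout library. H2-Q7 was between 1.84 and 3.17 CPM in WT_20d and had at most 4 counts in any knockout library. Both passed the filter only through WT_20d and are given without a test. H2-M3 went the other way, with 1.31 to 3.05 CPM in WT_20d and 6.07 to 50.5 CPM in the libraries of the other lines. Summed over all class I heavy chain genes listed, the level rose from 190 to 447 CPM in WT_1-4, 99.4 to 269 in WT_20d, 107 to 264 in Nox4KO_5-8 and 110 to 294 in Nox4KO_5-23. H2-Q genes made up 39.0% of that sum in WT_20d on day 0 and 13.6% on day 14, and at most 3.04% in any library of the other lines.

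**Figure D5:**
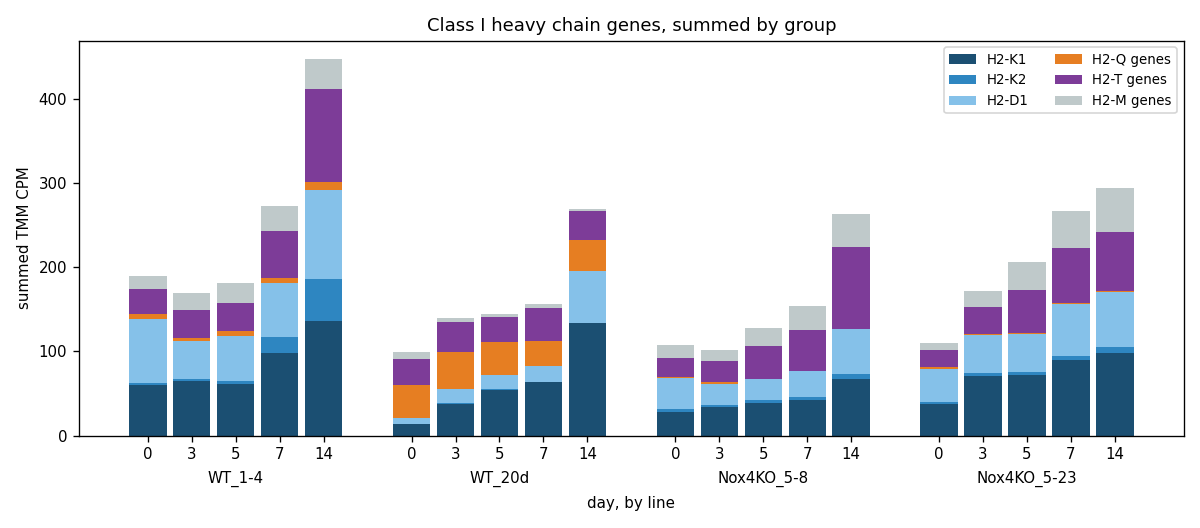
Summed level of class I heavy chain genes (vertical axis, CPM, from 0) for each library, ordered by line and day (horizontal axis), with stacked bars for H2-K1, H2-K2, H2-D1 and the summed H2-Q, H2-T and H2-M genes. The sum goes from 190 to 447 CPM in WT_1-4, and the H2-Q part is 39.0% of the WT_20d bar of day 0 and at most 3.04% of any bar of the other lines.

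Genes of other steps of the pathway were read against 14.3% of all genes called higher and 13.5% called lower between days 0 and 14. Of 6 genes for folding and peptide trimming, such as Calr and Erap1, 0 passed between days 0 and 14 in either direction. Of 8 genes of the proteasome and its regulators, 1 fell, Psme3 (-1.40 ± 0.17, FDR 1.19e-05), which encodes a nuclear proteasome activator. These 8 include Psmb10, which encodes another catalytic subunit of the immunoproteasome. Without WT_20d, 1 of the 6 rose and 0 fell, and 2 of the 8 rose and 1 fell, against 18.4% and 15.9% of all genes. Of 8 genes whose proteins bind the X and Y boxes of class I promoters, 3 fell, Nfyc (-1.30 ± 0.24, FDR 0.000417), Atf1 (-0.88 ± 0.16, FDR 0.000451) and Nfyb (-0.76 ± 0.18, FDR 0.00363), and without WT_20d again 3 of the 8 fell.

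Genes of interferon and NF-kappaB signalling rose on day 14 in 8 of 16 cases, against 14.3% of all genes, and 0 fell. Without WT_20d 7 of 16 rose, against 18.4%. They included Jak2 (2.24 ± 0.21, FDR 2.28e-06), a kinase of the interferon gamma receptor, Relb (1.57 ± 0.24, FDR 9.29e-05), Jak1 (0.90 ± 0.16, FDR 0.000277) and Stat2 (1.22 ± 0.23, FDR 0.000457). Of 24 interferon response genes tested 9 rose, against 14.3% of all genes, and 0 fell, with a median log2 change of 2.23, among them Mx2 (4.62 ± 0.67, FDR 6.04e-05), Ifi27 (3.60 ± 0.55, FDR 8.97e-05) and Xaf1 (2.90 ± 0.47, FDR 0.000162). Mx2 was at 10 counts or more on day 14 in each line and at 0 counts on day 0 in both knockout lines. Without WT_20d, 13 of 20 such genes rose and 1 fell, against 18.4% and 15.9% of all genes. Of these 20 genes, 8 were lower and 6 higher in the knockout lines than in WT_20d, against 26.5% and 23.3% of all genes.

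Among 17 genes listed as neighbours of H2-K1, some of which lie elsewhere on chromosome 17 in this annotation, 3 rose and 5 fell between days 0 and 14, against 14.3% and 13.5% of all genes, and without WT_20d 3 rose and 3 fell. Rps18, a ribosomal protein gene at chr17:33951999-33956001 between Tapbp and H2-K2, was between 13.2 and 32.5 CPM in WT_20d and between 415 and 943 CPM in every library of the other lines (WT_20d against WT_1-4, -4.63 ± 0.20, FDR 2.63e-11). Low H2-K2 counts in WT_20d thus stood beside low counts of a nearby gene, while Daxx, Zbtb22 and Rgl2 nearby were at 21.7 to 61.2 CPM in all 20 libraries. How the reads of these genes and of their copies were divided in WT_20d was not tested.

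The genes whose pattern over the 20 libraries was most like that of H2-K2 were found by Pearson's r of log2(CPM + 1). They were Kank2 (0.961), Btbd1 (0.946), Slc48a1 (0.939), Ergic1 (0.937) and Smox (0.935), and among the members H2-D1 came closest (0.711), above H2-K1 (0.518). For H2-K1 they were Ncstn (0.948), Sun2 (0.904), Lamb2 (0.904), Nsmf (0.903) and Tyk2 (0.900), and among the members H2-D1 (0.803), B2m (0.724) and Tapbp (0.622). The 20 points share 4 lines and 5 days and are not independent, so these values describe the libraries only.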

How the data were processed

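RNA-seq libraries of mouse iPSC and EB cultures (stranded mRNA kit, paired ends) were analysed from 1 table. Per the labels and the study's methods, the authors trimmed reads with fastx_toolkit, aligned them to mm10 (GRCm38) with STAR 2.6.0c and estimated counts with RSEM 1.3.1, and the strand setting of RSEM is not given in the sources used here. The authors deposited expected counts without normalization, of which 9.92% had decimals since reads that match more than 1 gene are shared out. Without a known strand setting, reads of overlapping genes on opposite strands may not be told apart.

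Expected counts were rounded and analysed in R (version 4.3.3) with edgeR (4.0.16), which loads limma (3.58.1). DESeq2 (1.42.0) was an alternative. The quasi-likelihood model held line and day (or genotype by day), with TMM scaling, filterByExpr and an FDR under 0.01 over all 18474 genes. The line, given by the labels, was the block, and each day holds 1 library of each line. CPM values use TMM factors. Totals ranged from 20294968 to 27708023. Model fits were tested on simulated data. Symbols came from GENCODE M21. The labels' protocol gives day 10 as the last day, their titles day 14, which was used.

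The members and lists were chosen with earlier results of these data known. All 10 members are named, with up to 4 genes of each other list by lowest FDR and, for H2-K2 and H2-K1, the 5 most alike genes. H2-T10, H2-M3, Daxx, Zbtb22, Rgl2 and single markers were named after their values were seen. H2-K2 was not tested between WT_20d and other lines. The libraries that chose it took part in the day and interaction fits, so its day 14 change is a description. Nlrc5, H2-Q10 and H2-Q7 passed the filter only through WT_20d. The fits and list counts without WT_20d and of the day 14 interaction term were added after the data were seen. Alternatives covered RLE scaling, no filter, DESeq2, edgeR's exact test, no block, summed H2-K1 and H2-K2, CPM without TMM, rounding, and leaving out each library, line or day.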

Additional observations from a re-analysis of the deposited data

Results flagged for a closer look

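Among 40 sets of 5 libraries (the days of 1 member in 1 line), 5 held a library farther from the others than Dixon's 95% critical value of 0.71, and chance gives about 1 in 20. H2-D1 in WT_20d was at 61.0 CPM on day 14 against 7.26 to 18.8 CPM on the other days. B2m in Nox4KO_5-8 was at 76.9 CPM on day 0 against 62.5 to 65.2 CPM. Tap1 in WT_1-4 was at 38.9 CPM on day 14 against 12.7 to 16.4 CPM. Tapbp in Nox4KO_5-8 was at 154 CPM on day 14 (153.7) against 16.3 to 52.2 CPM. Psmb8 in Nox4KO_5-8 was at 0.414 CPM on day 14 against 0.0407 to 0.127 CPM, on 9 counts. The 5 libraries of a line are different days, so a library apart may be a change with day.

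Without line WT_1-4, the change from day 0 to day 14 differed between the knockout lines and WT_20d by the day 14 interaction term of edgeR's quasi-likelihood test. The log2 difference, knockout lines minus WT_20d, was -1.999 for H2-K1 (FDR 0.00572), -2.46 for H2-D1 (FDR 0.00490), -3.65 for B2m (FDR 0.000961) and 7.51 for Psmb8 (FDR 0.00500). In values, H2-K1, H2-D1 and B2m rose more in WT_20d. Psmb8 had 1 and 3 counts on day 0 in the knockout lines, at or under the 3 counts taken as detected, so its term has no readable size. This fit has 1 wild type line, which is assumed to vary like the knockout lines, and no member was called when WT_1-4 was kept.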

How the results depend on the processing

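No called member result changed sign under an alternative. Of member results under settings other than leaving out libraries, 345 were counted as unchanged, 12 gained a call, 6 lost one and 6 uncalled ones changed sign. Another 60 levels and shares moved by less than their spread. Unchanged means the same sign and side of the threshold. For the knockout lines against WT_1-4, given as a description, it rests on the log2 difference alone. There H2-K2 lost its call and Tap2 gained one, as given above. Without the replicate block (line, or day for comparisons of lines), the members called went from 2 to 1 for the day effect, from 2 to 1 for WT_20d against WT_1-4 and from 5 to 3 for the knockout lines against WT_20d. The genes called without the block were 644 of 3188 for the day effect, 1756 of 5139 for day 14, 305 of 655 between the knockout lines, and 0 of 2 and 0 of 4 for the interaction and its day 14 term. With DESeq2 the counts were 5102 for the day effect, 1387 between the knockout lines, and 182 and 486 for the interactions, and with no filter 11 and 39 for the interactions. The exact test on the lines compared gave 3 members for the knockout lines against WT_20d, and for H2-D1 in WT_20d against WT_1-4 an FDR of 0.012. The sign changes were in Psmb8 (-0.90) and Psmb9 (-0.81) on day 14 without the block, and for the knockout lines against WT_20d in H2-K1 (-0.10 by the exact test, -0.14 without the block) and B2m (-0.015 and -0.021). Among the calls gained were those of H2-K2 on day 14 with RLE scaling, no filter and DESeq2. Nothing is read from them, because most libraries of those fits took part in its choice. H2-D1 passed in the day effect with DESeq2 (0.00049) and no filter (0.00817).

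Leaving out 1 library, line or day, the members called were 0 to 3 for the day effect, 2 to 3 for day 14, 1 to 2 between the knockout lines, 1 to 5 for WT_20d against WT_1-4, 2 to 6 for the knockout lines against WT_20d, and 0 to 1 and 0 to 4 for the interactions. Genes called were 624 to 3978, 2567 to 5839, 159 to 984, 5319 to 7857, 7086 to 9466, 0 to 605 and 0 to 1723. The causes were not tested. Depth limits Nlrc5 and Psmb8, with 3 counts or fewer in many libraries. CPM without TMM factors was 0.903 to 1.05 times the value given. The comparison of the knockout lines with WT_1-4 called 1905 genes by the exact test and 2218 with line and day as terms.

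Leaving out 1 library, line or day also changed the sign of uncalled log2 differences in 41 fits. On day 14 B2m ranged from -0.10 to 1.202, Psmb9 from -0.43 to 0.85 and Nlrc5 from -0.96 to 0.27. Between the knockout lines Nlrc5 ranged from -1.31 to 0.21. For WT_20d against WT_1-4, B2m ranged from -0.51 to 0.46 and Tap2 from -0.36 to 0.39. For the knockout lines against WT_20d, H2-K1 ranged from -0.15 to 0.31 and B2m from -0.18 to 0.71. The day 14 interaction term ranged from -1.999 to 0.15 for H2-K1, -3.09 to 0.73 for H2-K2, -2.46 to 0.16 for H2-D1, -3.65 to 0.47 for B2m and -3.47 to 2.49 for Nlrc5.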
